A study of Mus musculus with 3 samples.

Results

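Type I interferon-stimulated genes were followed through myeloid cells of mice bearing subcutaneous B16-F10 melanoma, as 33 genes of 34 listed by symbol (Ifit1, Ifit2, Ifit3, Ifit3b, Isg15, Isg20, Rsad2, Irf7, Oasl1, Oasl2, Oas1a, Oas2, Oas3, Mx1, Cmpk2, Usp18, Ifi44, Ifi204, Ifi205, Rtp4, Bst2, Xaf1, Zbp1, Ddx58, Ifih1, Dhx58, Herc6, Trim30a, Phf11b, Phf11d, Slfn5, Samd9l and Parp14), out of 27998 genes in the matrices. Mx2 was not analysed here, having no row under that symbol. All mice were labelled C57BL/6J, and the libraries were tumor from a Treg-depleted mouse titled FoxP3 DTR, tumor from control (WT) mice and blood from control (WT) tumor-bearing mice. DTR is taken here as the diphtheria toxin receptor, placed at the gene of regulatory T cells so that toxin removes them. The genotype and the depletion mark the same library and cannot be told apart, and whether control mice received toxin, the age of the mice and any pooling are not given in the sources used here. Live CD45+ cells lacking CD90, NK1.1, Ly6G, B220 and SigF and carrying CD11b, CD11c or both had been sorted, and 3' ends of their RNA were counted as unique molecules (UMIs). Each group had 1 library, so no test between groups was possible and no p-value is given.

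Type I interferons, the alpha and beta forms, bind the receptor of Ifnar1 and Ifnar2, and its kinases activate transcription factors. Together with Irf9 these bind interferon-stimulated response elements in front of a large set of genes, many of which act against viruses. In myeloid cells the same genes are also raised by pattern-recognition receptors and, in part, by interferon gamma, which acts on gamma-activated sites. In tumors, type I interferon is known for priming dendritic cells and T cells.

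The element was searched in RefSeq promoter windows (GRCm38.p6, 250 bases before to 50 after each start) as GAAA followed by any 2 bases and GAAA again, on either strand. Windows were found for 25 of the 33 genes, and 14 of these 25 (56.0%) held at least 1 match, against 3.99% of all 27025 genes with a window. A window without a match says only that these letters are not in it. The stretches below lie before the transcription start and belong to genes that stood at least 2-fold apart between blood and tumor in the comparisons that follow, 3 higher in tumor cells and 2 lower. Capitals mark matches to the element, which overlap each other in Isg15. Ifi205 (chr1:174031811-174031955, minus strand), Rsad2 (chr12:26456453-26456652, minus strand) and Isg15 (chr4:156200819-156201018, minus strand) are the higher ones, and Ifit3 (chr19:34583329-34583528, plus strand) and Ifit3b (chr19:34607757-34607956, plus strand) the lower ones.
Ifi205: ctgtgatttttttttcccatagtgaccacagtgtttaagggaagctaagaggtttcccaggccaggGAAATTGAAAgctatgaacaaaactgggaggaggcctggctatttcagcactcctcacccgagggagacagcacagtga
Rsad2: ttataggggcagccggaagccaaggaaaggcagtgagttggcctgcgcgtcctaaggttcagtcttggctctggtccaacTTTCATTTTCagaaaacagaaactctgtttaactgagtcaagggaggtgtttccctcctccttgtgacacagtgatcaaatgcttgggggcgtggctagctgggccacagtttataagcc
Isg15: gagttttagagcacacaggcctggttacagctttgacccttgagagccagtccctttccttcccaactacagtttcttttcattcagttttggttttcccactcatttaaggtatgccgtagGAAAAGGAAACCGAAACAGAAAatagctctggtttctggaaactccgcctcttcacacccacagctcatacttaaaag
Ifit3: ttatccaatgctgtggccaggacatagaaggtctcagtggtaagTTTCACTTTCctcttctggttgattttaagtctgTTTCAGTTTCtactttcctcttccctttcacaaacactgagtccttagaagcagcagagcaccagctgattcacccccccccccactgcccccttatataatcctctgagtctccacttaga
Ifit3b: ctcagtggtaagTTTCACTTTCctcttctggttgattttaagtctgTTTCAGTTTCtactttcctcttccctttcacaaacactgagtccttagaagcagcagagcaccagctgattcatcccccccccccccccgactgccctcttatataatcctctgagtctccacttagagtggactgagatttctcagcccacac
The stretches shown were picked for holding a match, so a match in both directions follows from that choice. Other called genes had a window without a match. These were Oasl1, higher in both tumors, Ifi44, higher in the Treg-depleted tumor, and Samd9l, lower in the control tumor. The Ifit3 and Ifit3b windows shared a longest identical run of 169 bases, and 252 of their 300 bases lay in shared runs of 10 or more. These 2 genes are neighbours on chromosome 19, and their transcripts are near-identical copies, so the split of reads between them is uncertain. The same holds to a lesser degree for Phf11b and Phf11d, for Ifi204 and Ifi205 with their relatives, and for the Oas family. The gamma-activated site TTCNNNGAA, which reads the same on both strands, was found in 16.0% of the 25 genes and 9.55% of all genes.

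Cells were barcodes of 1000 UMIs or more that held at least 400 genes and no more than 10% of mitochondrial UMIs, which left 4434 cells of the Treg-depleted tumor, 4443 of the control tumor and 5550 of blood, with medians of 3820, 6452 and 3550 UMIs. They shared 36 cell barcodes between the tumors, 27 between Treg-depleted tumor and blood and 35 between control tumor and blood, where barcodes drawn independently from the kit would share 26.7, 33.4 and 33.4. Cells with at least 3 UMIs over any 1 marker list of NK, B, T, neutrophil, plasmacytoid dendritic, dendritic cells or basophils were set aside (308, 830 and 761 cells of the 3 libraries). In the tumors, Ly6c2-high cells had at least 3 UMIs of the monocyte gene Ly6c2 and at most 4 of C1qa, C1qb and C1qc together (1176 Treg-depleted and 828 control cells), and C1q-high cells had at least 5 C1q and at most 2 Ly6c2 UMIs (624 and 1111 cells). In blood, nonclassical cells (1249) had at most 1 Ly6c2 UMI and at least 2 of Ace, Treml4, Eno3, Adgre4 and Spn, and classical cells (1661) at least 3 Ly6c2 UMIs and at most 1 of those genes. UMIs were summed over each class and divided by the total of the class (counts per 1000000 UMIs, CPM). A gene was called higher or lower where the log2 ratio of CPM reached 1 in size, a 2-fold difference, with at least 20 UMIs over both classes. Brackets after a ratio hold its exact 95% interval, which covers the counting of UMIs and not the difference between animals.

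Markers left out of the gates were set against the class names. Summed classical monocyte markers (Ccr2, Vcan, Fn1, F13a1, Ly6c1, Chil3) stood at 1469 CPM in blood nonclassical against 5535 CPM in classical cells, and summed nonclassical markers at 2356 against 278 CPM. In tumor Ly6c2-high cells the classical markers summed to 4154 CPM in the Treg-depleted and 1769 CPM in the control tumor, below blood classical cells in both. Of the macrophage markers, Apoe stood at 6573 CPM in control C1q-high against 2001 CPM in Ly6c2-high cells, Ms4a7 at 700 against 72.6 CPM and Trem2 at 340 against 52.6 CPM. In the Treg-depleted tumor Mrc1 stood at 521 CPM in C1q-high against 202 CPM in Ly6c2-high cells and Ms4a7 at 76.0 against 37.3 CPM, but Apoe stood at 180 against 197 CPM and Cd68 at 283 against 410 CPM, so that class is called by its gate and not by a cell type name. C1q transcripts summed to 1130 CPM in barcodes of at most 100 UMIs of the Treg-depleted tumor and to 5908 CPM in those of the control tumor, where free RNA can therefore add C1q UMIs to deep cells. The other-lineage lists, in contrast, had served to set cells aside, so low sums of those lists follow in part from the gate. Over the 6 classes, T cell markers summed to at most 0.41 CPM and plasmacytoid dendritic cell markers to at most 5.01 CPM. B cell markers reached 27.0 CPM in blood nonclassical cells and dendritic cell markers 24.2 CPM in blood classical cells. Neutrophil markers ranged from 5.59 CPM in control C1q-high to 120 CPM in blood classical cells, and melanoma markers up to 16.9 CPM, in control C1q-high cells. Their part in the differences below was not tested.

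All 33 genes were detected in each of the 6 classes. They summed to 7374 CPM in Treg-depleted and 6806 CPM in control Ly6c2-high cells, to 4180 and 3610 CPM in C1q-high cells, and to 2437 CPM in nonclassical and 4485 CPM in classical blood cells. Ly6c2-high and classical cells were thus above the other class of their own library. Isg15, a ubiquitin-like protein that is attached to other proteins and also secreted, made up 25.3% of these UMIs in Treg-depleted and 21.9% in control Ly6c2-high cells, but 8.65% in blood classical cells. Without Isg15 the sums of those 3 classes were 5505, 5316 and 4097 CPM. The tumor-to-blood gap of the sum therefore rested in good part on 1 gene. Gene by gene, 14 members had their highest level in blood classical cells, 11 in Treg-depleted Ly6c2-high, 7 in control Ly6c2-high and 1 in Treg-depleted C1q-high cells. The lowest level fell in blood nonclassical cells for 12 members, in Treg-depleted C1q-high for 12 and in control C1q-high for 9. The summed level in barcodes of at most 100 UMIs, mostly free RNA, was 5731 CPM in the Treg-depleted tumor, 4309 CPM in the control tumor and 3782 CPM in blood, so free RNA holds these transcripts at a level near that of the cells.

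**Figure D1:**
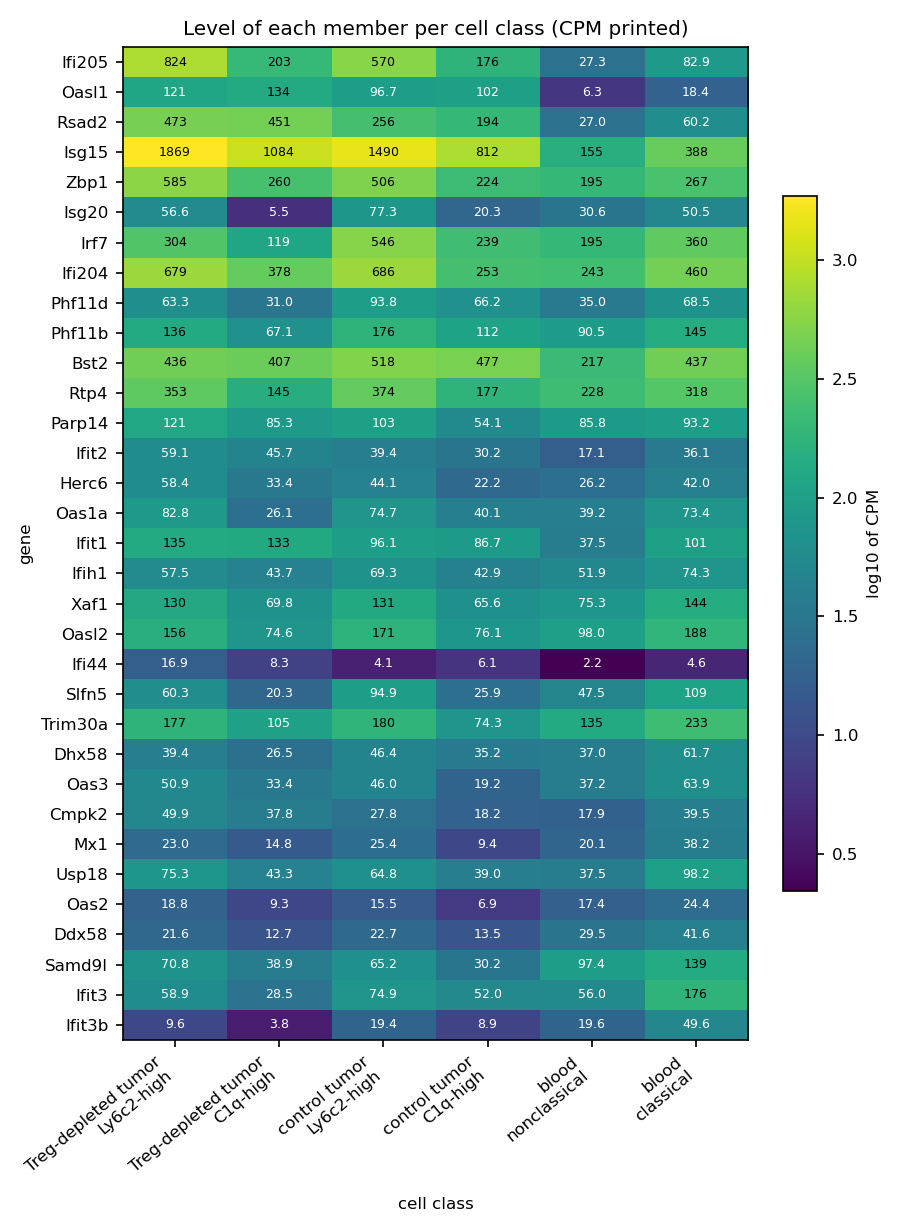
Level of each of the 33 genes in the 6 cell classes, 1 library per group, as log10 of CPM (colour, with the CPM printed) with genes in rows and classes in columns. Genes such as Isg15, Rsad2, Ifi205 and Oasl1 are higher in the tumor columns, and Ifit3, Ifit3b and Samd9l are higher in blood classical cells.

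The question of which members were induced and which were lost between blood and tumor was addressed by setting tumor Ly6c2-high cells against blood classical cells. By the classical markers above, these are not matched cells, least of all in the control tumor. The part of cell type or state in the ratios was not tested. The gene set did not move as a block. In Treg-depleted Ly6c2-high cells 6 of 33 members were at least 2-fold higher, where 14.4% of the 9893 genes with enough UMIs were, and 2 were at least 2-fold lower, where 29.2% of those genes were. In control Ly6c2-high cells 4 of 33 were higher, against 11.7% of 9710 genes, and 3 were lower, against 25.8%. The shares of members called higher are near those of all genes. The median log2 ratio of the members was −0.09 in the Treg-depleted and −0.08 in the control tumor, beside −0.39 and −0.40 over all genes tested. Ratios centred on that all-gene median gave 7 members higher and 2 lower in the Treg-depleted tumor, and 7 higher (with Zbp1, Irf7 and Isg20 added) and 0 lower in the control tumor. Centring raises the ratios of all genes alike. The shares of all genes called after it were not computed, so these counts have no background beside them. Both comparisons use the same blood library.

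4 members were higher in both tumors. Ifi205, a DNA-binding protein of the PYHIN family, had 824 CPM in Treg-depleted and 570 CPM in control Ly6c2-high cells, against 82.9 CPM in blood classical cells, log2 ratios of 3.31 [3.19 to 3.44] and 2.78 [2.65 to 2.92]. Rsad2 (viperin), an enzyme that makes a chain-terminating nucleotide, had 473 and 256 CPM in the same tumor classes against 60.2 CPM in blood, ratios of 2.98 [2.82 to 3.13] and 2.09 [1.93 to 2.26]. Isg15 had 1869 and 1490.0 CPM against 388 CPM, ratios of 2.27 [2.21 to 2.33] and 1.94 [1.88 to 2.01]. All 3 stood well clear of blood in each tumor. Oasl1, which in mice limits translation of Irf7 mRNA, had 121 and 96.7 CPM against 18.4 CPM, ratios of 2.71 and 2.39. These 4 genes, with Oasl1 lacking a match to the element in its window, stayed higher under all 16 settings tried in both tumors. Not every setting can change a ratio, as set out in the closing section.

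Zbp1 and Ifi44 passed the 2-fold line in the Treg-depleted and not in the control tumor. Zbp1, a sensor of Z-form nucleic acids that can start necroptosis, had 585 CPM in Treg-depleted and 506 CPM in control Ly6c2-high cells against 267 CPM in blood, ratios of 1.13 [1.05 to 1.21] and 0.92 [0.83 to 1.01], so it lay just on either side of the 2-fold line. Ifi44, an interferon-induced protein of uncertain mechanism, had 97 UMIs (16.9 CPM) in Treg-depleted Ly6c2-high cells, 20 UMIs (4.13 CPM) in control Ly6c2-high cells and 31 UMIs (4.61 CPM) in blood, ratios of 1.88 [1.28 to 2.51] and −0.16 [−1.05 to 0.70]. Ifi44 was the member that set the tumors apart here, at low counts.

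The lower members were Ifit3 and Ifit3b in both tumors. Ifit proteins bind foreign RNA and hold back its translation, and Ifit3 stabilises Ifit1 in that complex. Ifit3 had 58.9 CPM in Treg-depleted and 74.9 CPM in control Ly6c2-high cells against 176 CPM in blood classical cells, ratios of −1.58 [−1.76 to −1.40] and −1.23 [−1.40 to −1.06]. Ifit3b had 9.59 and 19.4 CPM against 49.6 CPM, ratios of −2.37 [−2.81 to −1.96] and −1.36 [−1.70 to −1.02]. The pair thus moved the same way, away from its neighbours on the chromosome. Ifit1 had 135 and 96.1 CPM against 101 CPM, ratios of 0.41 [0.26 to 0.56] and −0.08 [−0.25 to 0.09], and Ifit2 had 59.1 and 39.4 CPM against 36.1 CPM, ratios of 0.71 [0.47 to 0.95] and 0.13 [−0.16 to 0.41]. Samd9l, an antiviral protein that also restrains cell growth, had 70.8 and 65.2 CPM against 139 CPM, ratios of −0.97 [−1.15 to −0.80] and −1.09 [−1.28 to −0.91], again on either side of the line. After centring, Ifit3 and Samd9l were at −0.83 and −0.69 in the control tumor, short of 2-fold, with the sign unchanged.

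**Figure D2:**
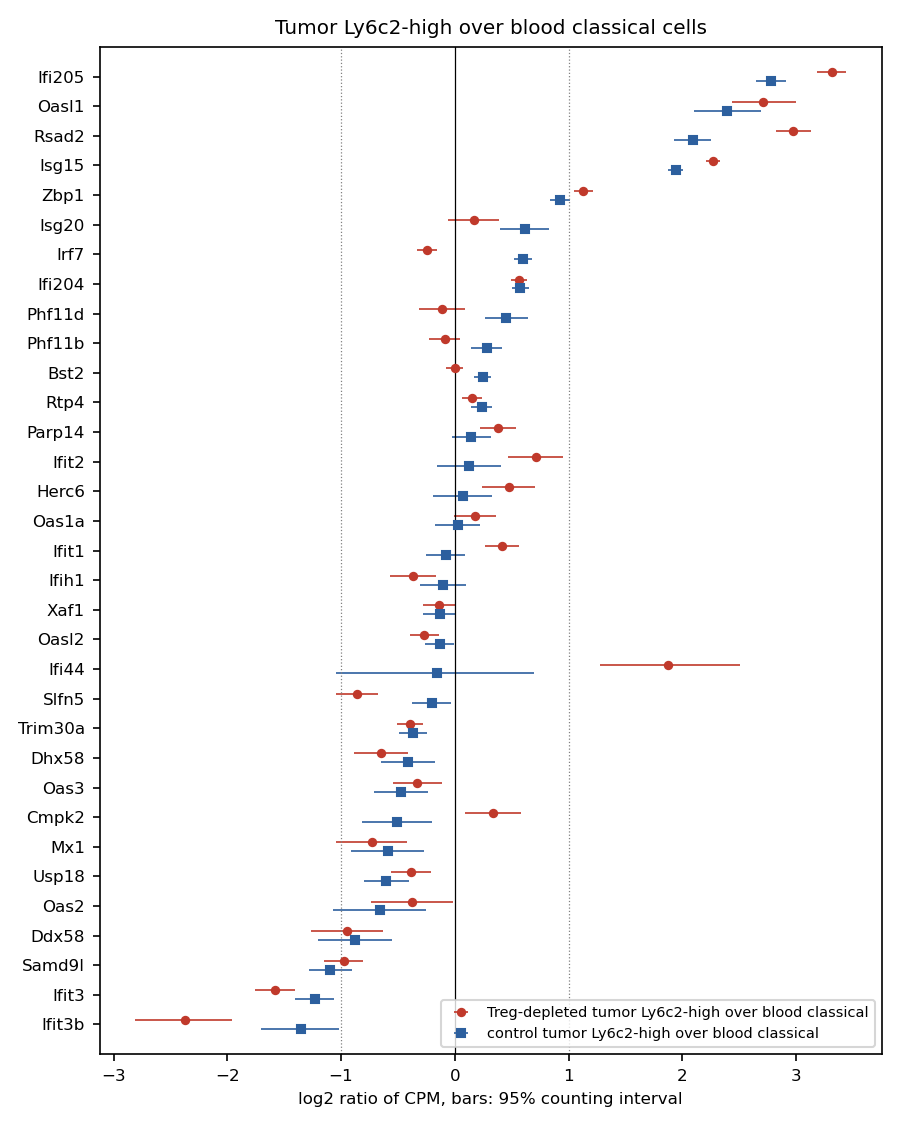
Log2 ratio of CPM of tumor Ly6c2-high over blood classical cells for each of the 33 genes, Treg-depleted and control tumor as separate points with 95% counting intervals and dotted lines at 2-fold. Ifi205, Oasl1, Rsad2 and Isg15 lie beyond 2-fold on the high side and Ifit3 and Ifit3b on the low side in both tumors, and 24 genes lie between the lines in both.

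The other 24 members were between the 2-fold lines in both tumors. Among the sensors of viral RNA, Ddx58 (RIG-I) was at −0.94 [−1.26 to −0.63] in Treg-depleted and −0.87 [−1.21 to −0.55] in control Ly6c2-high cells, and Dhx58 (LGP2) at −0.65 and −0.41. Ifih1 (MDA5) was at −0.37 [−0.57 to −0.17] and −0.10 [−0.30 to 0.10]. All 3 were short of 2-fold. Relative to the all-gene median Ifih1 was at 0.02 in the Treg-depleted tumor, level with it, and at 0.30 in the control tumor. Of the oligoadenylate synthetase family, whose products activate RNase L, Oas1a was at 0.17 and 0.02, Oas2 at −0.37 and −0.66, Oas3 at −0.33 and −0.47 and the related Oasl2 at −0.27 and −0.13. Oasl1 was the exception in that family. Irf7, the transcription factor that amplifies interferon production, was at −0.24 [−0.33 to −0.16] and 0.60 [0.52 to 0.68], below blood in the Treg-depleted and above it in the control tumor. Relative to the all-gene median Irf7 was at 0.15 and 1.00, so in the Treg-depleted tumor it was lowered less than the median gene. Usp18, which removes Isg15 from proteins and dampens the receptor, was at −0.38 and −0.60. Bst2 (tetherin), which holds budding viruses at the membrane, was within 0.24 of blood in both.

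The Treg-depleted and control tumors were next set against each other within each gate. In Ly6c2-high cells the members stayed close, with a median log2 ratio of −0.01 beside −0.05 over all genes. Of 33 members 1 was at least 2-fold higher in the Treg-depleted tumor, against 8.03% of 9167 genes, and 1 was lower, against 5.35%. The higher one was Ifi44, with 97 UMIs in Treg-depleted against 20 in control cells, a ratio of 2.04 [1.33 to 2.81]. The lower one was Ifit3b, with 55 against 94 UMIs, a ratio of −1.02 [−1.52 to −0.52], which reached 2-fold under 10 of 16 settings. Both rest on few UMIs. Short of 2-fold, Rsad2 was at 0.88 [0.79 to 0.98] and its chromosome 12 neighbour Cmpk2, a nucleotide kinase, at 0.84 [0.54 to 1.15], while Irf7 was at −0.85 [−0.93 to −0.76], with 304 CPM in Treg-depleted against 546 CPM in control cells. When cells counted equally, by the mean of each cell's CPM, Rsad2 reached 1.07 and the count higher became 2.

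C1q-high cells showed Rsad2, Cmpk2 and Irf7 on the same sides. Of 33 members 2 were at least 2-fold higher in the Treg-depleted tumor, against 10.5% of 9903 genes, and 4 were lower, against 10% of them. The share of members called lower is near that of all genes, and the share called higher is not above it. The median ratio was 0.21 beside −0.01 over all genes. Rsad2 had 451 CPM in Treg-depleted against 194 CPM in control C1q-high cells, a ratio of 1.22 [1.11 to 1.32], and Cmpk2 37.8 against 18.2 CPM, a ratio of 1.05 [0.70 to 1.40]. Isg20, an exonuclease that degrades RNA, had 16 UMIs (5.50 CPM) against 211 UMIs (20.3 CPM), a ratio of −1.89 [−2.72 to −1.15]. Isg20 was the member with the widest gap and stayed lower under all 16 settings. Irf7 had 119 against 239 CPM, a ratio of −1.01 [−1.18 to −0.85]. Phf11d, a zinc-finger protein, was at −1.10 [−1.43 to −0.78] and Ifit3b at −1.23 [−2.28 to −0.32]. The C1q gate met unlike cells in the 2 tumors, with summed C1q at 2897 CPM in Treg-depleted and 10892 CPM in control C1q-high cells and medians of 4133.5 and 8537 UMIs per cell. With gates set after thinning every cell to 2000 UMIs, Rsad2 was at 0.93 and no member was called higher. Over all settings Irf7 ranged from −1.30 to −0.97, at least 2-fold lower in 13 of 16. Phf11d ranged from −1.36 to −0.97, Ifit3b from −1.87 to −0.60 and Cmpk2 from 0.71 to 1.16. How much of each difference is due to depth and gate was not tested.

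Within each library the members sat mostly on 1 side. C1q-high cells of the Treg-depleted tumor had 14 of 33 members at least 2-fold lower than its Ly6c2-high cells, against 4.62% of 9030 genes, and 0 higher, against 6.85%. In the control tumor 14 were lower, against 5.38% of 9974 genes, and 0 higher, against 12.2%. In blood, nonclassical cells had 13 lower than classical cells, against 4.98% of 9553 genes, and 0 higher, against 4.93%. Median ratios of the members were −0.84, −0.93 and −0.92, beside 0.13, 0.11 and 0.01 over all genes. The interval lay below 0 for 30, 30 and 31 of the 33 members. These intervals cover counting only, and the share of all genes with an interval below 0 was not computed. The shares called lower are above the background in all 3 libraries. Ly6c2, which sets the gate, belongs to the Ly6 family, several members of which are themselves interferon-responsive, and its part in these differences was not tested.

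**Figure D3:**
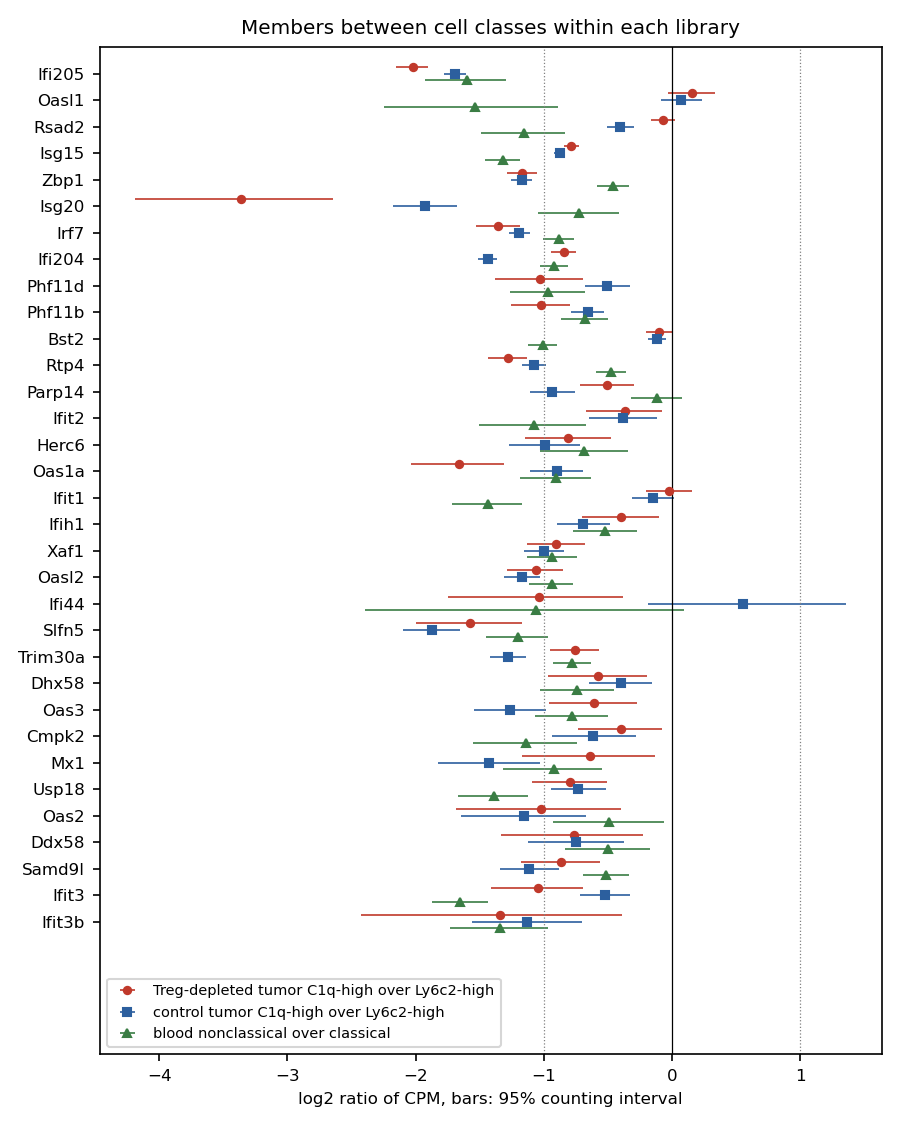
Log2 ratio of CPM between the 2 classes of each library for each of the 33 genes, with 95% counting intervals and dotted lines at 2-fold, as C1q-high over Ly6c2-high in the Treg-depleted and control tumors and nonclassical over classical in blood. Most points lie left of 0, and Oasl1 and Ifit1 lie near 0 in both tumors but well below it in blood.

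Which members differed most depended on the library. Isg20 was at −3.36 [−4.19 to −2.64] in the Treg-depleted and −1.93 [−2.18 to −1.68] in the control tumor, with 5.50 against 56.6 CPM and 20.3 against 77.3 CPM, but at −0.72 [−1.04 to −0.41] in blood. Ifi205 was low in all 3 comparisons, at −2.02 [−2.15 to −1.90], −1.70 [−1.78 to −1.61] and −1.60 [−1.92 to −1.29]. Slfn5, a Schlafen family protein, was at −1.57, −1.87 and −1.20. Oas1a at −1.66 [−2.03 to −1.31] in the Treg-depleted and Ifi204, a PYHIN relative of Ifi205, at −1.44 [−1.51 to −1.36] in the control tumor were also among the lowest. In blood the lowest were Ifit3 at −1.65 [−1.87 to −1.43], with 56.0 CPM in nonclassical against 176 CPM in classical cells, then Ifi205, Oasl1 at −1.54 [−2.25 to −0.89], Ifit1 at −1.44 [−1.71 to −1.17] and Usp18 at −1.39 [−1.66 to −1.12]. Ifit1 and Oasl1, low in blood nonclassical cells, were near 0 in the tumors. Ifit1 was at −0.02 [−0.20 to 0.16] and −0.15 [−0.31 to 0.02] in the Treg-depleted and control tumors, and Oasl1 at 0.15 [−0.03 to 0.34] and 0.07 [−0.09 to 0.23]. Over all settings Ifit1 ranged from −1.83 to −1.19 in blood. In the Treg-depleted and control tumors it ranged more widely than its intervals, from −0.59 to 0.11 and from −0.45 to 0.08. Rsad2 was at −0.07 [−0.17 to 0.03] and −0.40 [−0.50 to −0.30], and Bst2 at −0.10 and −0.12. The intervals of Ifit1 and Oasl1 included 0 in both tumors, while the summed member level was lower in them.

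Single cells were compared after each cell was thinned to 1000 UMIs. The median cell held 6 member UMIs in Treg-depleted and 5 in control Ly6c2-high cells, 3 in C1q-high cells of either tumor, and 2 in nonclassical and 3 in classical blood cells. The 90th percentiles were 17 and 15, 8 and 8, and 5 and 10, in the same order. The distributions were broad, with a variance over mean of 7.64 and 8.52 in Ly6c2-high, 6.84 and 5.80 in C1q-high, and 3.23 and 6.36 in blood nonclassical and classical cells, where counting alone gives 1. Member UMIs thus clump in cells, and the counting intervals of the ratios above do not cover that clumping. The highest single cell held 99, in the control Ly6c2-high class. The top 10% of cells held between 33.0% of member UMIs, in Treg-depleted Ly6c2-high cells, and 39.1%, in blood classical cells.

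**Figure D4:**
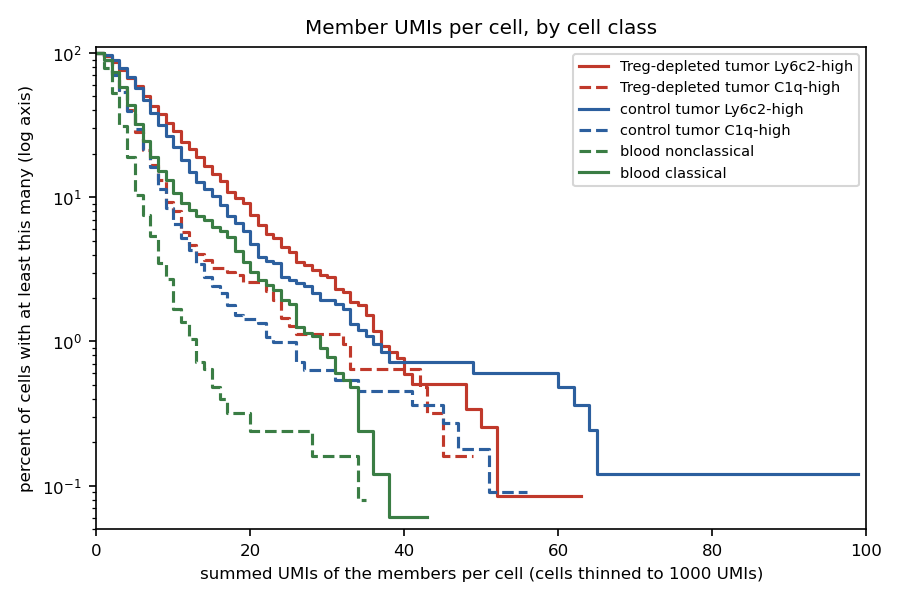
Share of cells (vertical axis, percent, logarithmic) with at least the number of member UMIs on the horizontal axis, each cell thinned to 1000 UMIs, 1 line per cell class. The Ly6c2-high lines of both tumors run above the others over most of the range, blood nonclassical cells run lowest, and a thin tail reaches 99 in control Ly6c2-high cells.

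To see which members were found in the same cells, cells were ranked by the thinned UMIs of the other members, and the share of a member's own UMIs in the top 10% of cells was taken. Over all other genes with at least 20 thinned UMIs, the median share was 9.04% in Treg-depleted Ly6c2-high, 9.21% in control Ly6c2-high and 9.19% in blood classical cells, with 95th percentiles of 19.0%, 19.2% and 19.0%. The member medians were 31.8%, 27.7% and 38.3%, and 29 of 32, 25 of 30 and 31 of 32 members with enough UMIs lay above those percentiles. Ifit3 had 71.2%, 73.1% and 65.6% of its UMIs in the top cells. Rsad2 had 50.6%, 57.3% and 69.0%. Ifit1 had 45.4% [38.0 to 52.9] in Treg-depleted Ly6c2-high cells against 74.7% [64.5 to 83.3] in control Ly6c2-high and 73.6% [66.2 to 80.2] in blood classical cells (Clopper-Pearson intervals, counting only). Its UMIs thus lay less in the cells highest in the other members in the Treg-depleted tumor.

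Ifi205 showed a like contrast between tumor and blood. Its top cells held 21.4% [18.9 to 24.1] of its UMIs in Treg-depleted and 18.5% [15.2 to 22.1] in control Ly6c2-high cells, against 48.9% [40.1 to 57.7] in blood classical cells. Isg15 had 30.5% and 36.0% against 49.1%. The UMIs of both genes thus lay less in the cells highest in the other members in the tumors than in blood. The member medians were lower in the tumors as well, at 31.8% and 27.7% against 38.3%. Isg15 made up 25.3% and 21.9% of member UMIs there against 8.65% in blood, so the ranking for Ifi205 leaned more on Isg15. Bst2 had 17.0%, 18.0% and 22.2%, and Zbp1 17.9%, 16.9% and 30.0%, below the 95th percentile in both tumors. Samd9l stood at 14.5% and 16.4% in the tumors against 26.2% in blood. Dhx58, a regulator of the RNA sensors, was at 34.1% in Treg-depleted Ly6c2-high and 21.5% in blood classical cells but 8.82% [1.86 to 23.7] in control Ly6c2-high cells, where it had 34 thinned UMIs.

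**Figure D5:**
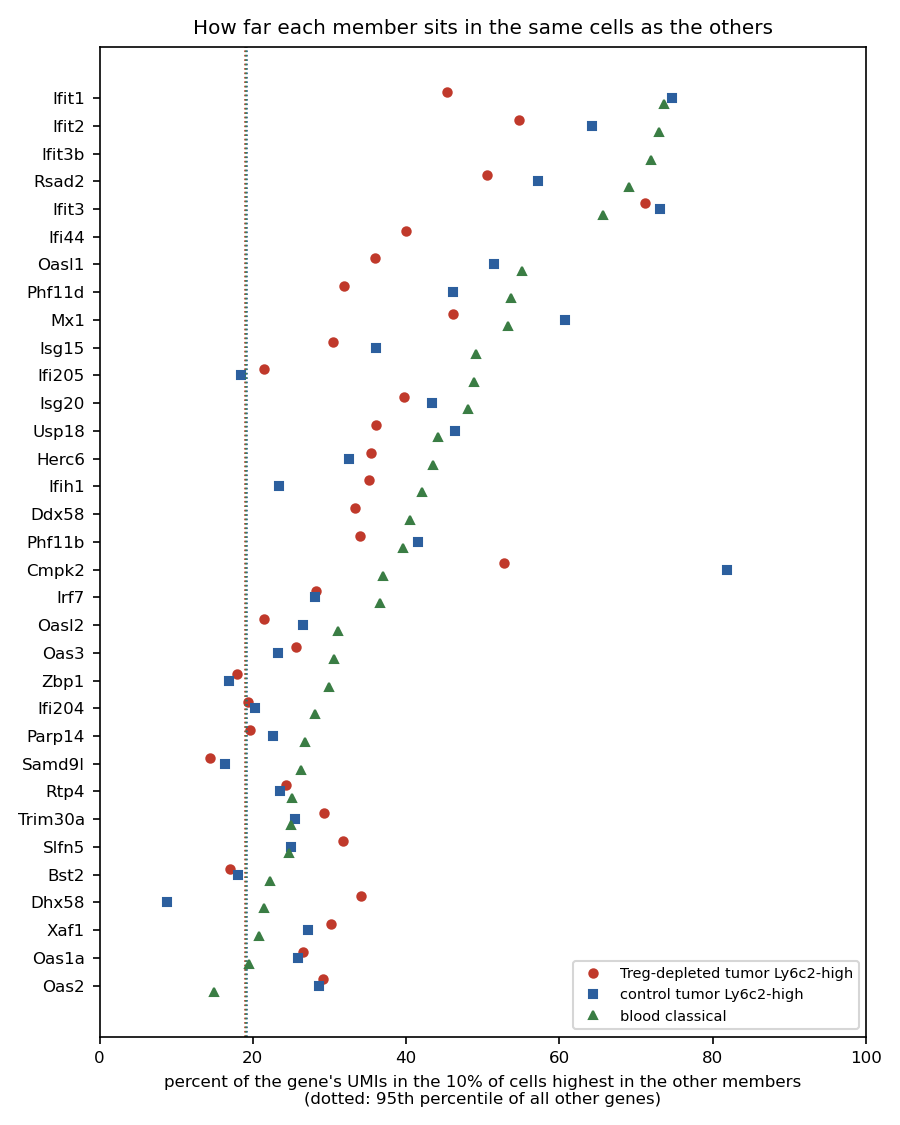
Share of each gene's UMIs (percent) found in the 10% of cells highest in the other members, each cell thinned to 1000 UMIs, for Treg-depleted Ly6c2-high, control Ly6c2-high and blood classical cells, with dotted lines at the 95th percentile of all other genes; members with under 20 thinned UMIs in a class are not drawn. Ifit3 lies far to the right in all 3 classes, and Ifi205 is near the line in the tumors but at 48.9% in blood.

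The other genes of the pathway were read from lists. Of 33 further type I interferon-stimulated genes with enough UMIs, 3 were at least 2-fold higher and 2 lower in Treg-depleted Ly6c2-high than in blood classical cells (median ratio −0.05), where 14.4% and 29.2% of all genes were (median −0.39). In control Ly6c2-high cells 3 were higher and 1 lower (median −0.19), where 11.7% and 25.8% of all genes were (median −0.40). The exceptions included Ifitm1, a membrane protein that blocks viral entry, at 3.39 [3.05 to 3.74] and 4.14 [3.81 to 4.49], and Trim25, a ubiquitin ligase that activates RIG-I, at 2.89 and 2.53. Within the tumors 12 of 33 were lower in C1q-high than in Ly6c2-high cells of the Treg-depleted and 16 of 33 in those of the control tumor, with 0 higher in both, where 4.62% and 5.38% of all genes were lower. In blood 9 were lower and 1 higher in nonclassical than in classical cells, where 4.98% of all genes were lower and 4.93% higher. The surface protein gene Ms4a4c was low in each, at −2.69, −1.94 and −1.35.

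A list of genes chosen as leaning to interferon gamma differed from the members between blood and tumor. That leaning was not measured here, and the list was chosen with earlier results of these data known. Which interferon acted on these cells was not tested. In Treg-depleted Ly6c2-high cells 21 of 25 were at least 2-fold higher than in blood classical cells (median ratio 3.67), and in control Ly6c2-high cells 21 of 25 (median 2.83), with 0 lower in either, where 14.4% and 11.7% of all genes were higher. Cd274, the gene of the checkpoint ligand PD-L1, had 463 CPM in Treg-depleted and 241 CPM in control Ly6c2-high cells against 1.49 CPM in blood, from 10 UMIs there. Iigp1, an interferon-inducible GTPase, had 321 and 89.9 CPM against 2.23 CPM. Between the tumors 8 of 25 were higher and 3 lower in Treg-depleted Ly6c2-high cells (median 0.49), where 8.03% and 5.35% of all genes were and the members' median was −0.01. The summed level of the list went the other way, at 20613 CPM in Treg-depleted against 37279 CPM in control Ly6c2-high cells. Nos2, the inducible nitric oxide synthase, had 118 CPM in Treg-depleted against 8.25 CPM in control Ly6c2-high cells, a ratio of 3.84 [3.38 to 4.33]. By promoter, 56.3% of the 16 listed genes with a window held the interferon-stimulated element, beside 56.0% of the members with a window. The gamma-activated site was in 8 of the 16, beside 16.0% of those members.

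Among receptor and signalling genes, 3 of 13 were higher and 2 lower in Treg-depleted Ly6c2-high than in blood classical cells, and 4 higher and 2 lower in control ones. Over all genes 14.4% were higher and 29.2% lower in the Treg-depleted tumor's cells, and 11.7% and 25.8% in the control tumor's. Socs1, an inhibitor of receptor kinases, had 148 CPM in Treg-depleted and 61.3 CPM in control Ly6c2-high cells against 8.62 CPM in blood, and Socs3, a related inhibitor, had 250 and 410 CPM against 26.3 CPM. Irf1, a transcription factor induced by interferon gamma, was at 2.53 and 2.35. Of the core of the pathway, the receptor genes had 93.6 and 121 CPM for Ifnar1 and 139 and 165 CPM for Ifnar2 in the tumors, against 60.0 and 149 CPM in blood. Stat2 had 46.4 and 29.9 CPM against 42.5 CPM, and Irf9 had 52.6 and 63.7 CPM against 87.7 CPM. Receptor and transducer genes were thus detected in all 3 classes.

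Of 21 interferon genes, Ifnb1, the gene of interferon beta, was the one with more than 2 UMIs in any class. It had 62 UMIs (10.8 CPM) in Treg-depleted and 3 UMIs (0.619 CPM) in control Ly6c2-high cells, 23 (7.91 CPM) and 73 (7.04 CPM) in C1q-high cells of the same tumors, and 0 in nonclassical and 1 in classical blood cells. These UMIs lay in few cells. In the Treg-depleted tumor 7 of 1176 Ly6c2-high cells held any, 1 of them 41 UMIs, and 11 of 624 C1q-high cells did. In the control tumor 3 of 828 Ly6c2-high cells held 1 UMI each, and 15 of 1111 C1q-high cells held the 73, up to 32 in 1 cell. Since UMIs of 1 cell are not independent, the counting interval of a ratio would not hold for this gene, and none is given. Barcodes of at most 100 UMIs held Ifnb1 at 10.7 CPM in the Treg-depleted and 7.79 CPM in the control library. The part of free RNA in the cells with a single UMI was not tested.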

How the data were processed

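Myeloid cells of 3 libraries (Treg-depleted tumor, control tumor, control blood) were sequenced with a 10x Chromium 3' v2 kit per the labels' protocols. The submitters' processing notes name Cell Ranger 1.2 and mm10. The deposited matrices hold UMI counts as whole numbers, not normalized, for all barcodes of the kit, and cells were called anew. Library totals were 23291061, 42493416 and 22944387 UMIs in that order.

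Other-lineage markers and gates are given with the results. Counts were summed per class and library, and ratios carry exact conditional binomial intervals at 95%, for counting error only. A count of 0 was set to a floor of 3. The ratio code was checked on simulated data. Gene positions are from GENCODE M21 (GRCm38). Cells were thinned to 1000 UMIs with seed 1 for per-cell values. Every kept cell had that many. scanpy 1.11.5 (Scrublet), scipy 1.17.1 and numpy 2.4.6 were used. Scrublet's own threshold called 0 cells in each library. An alternative therefore left out the 157, 158 and 246 cells with the highest scores, a rule chosen after seeing the data. The main result keeps doublets.

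The members and lists were chosen with earlier results of these data known. Named genes were the called members with the largest and smallest ratios at 50 CPM or more in the higher class, 6 each way per blood-to-tumor comparison and 4 otherwise, and 3 genes per other list. Other genes in the text, including Ifi44, Ifit3b, Cmpk2 and the members near 0, fall outside that rule and were chosen after their values were seen.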

Additional observations from a re-analysis of the deposited data

How the results depend on the processing

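All 7 comparisons were recomputed under 15 alternatives to gates, filters, scaling, free RNA, doublets and the UMI minimum, and no result changed sign where called. Shares of all genes called were not computed for any alternative, so the counts of members below have no background beside them. Centring on the median of all genes gave 7 members higher and 0 lower in control tumor Ly6c2-high over blood classical cells, and medians of 0.30 and 0.32 in the Treg-depleted and control tumors over blood. In Treg-depleted over control Ly6c2-high cells the count lower was 0 with centring, Ly6c2 of at least 2 UMIs, C1q of at least 3 UMIs, gates on thinned cells, the mean over cells, or without the 5% of cells with most UMIs, and the count higher was 2 with the mean over cells. In Treg-depleted over control C1q-high cells the count higher was 1 with C1q of at least 10 UMIs and 0 with gates on thinned cells, and the count lower was 2 with other-lineage cells kept. In control C1q-high over Ly6c2-high cells 1 member, Ifi44, was higher with the mean over cells. For centring the cause is its construction, and for the others the cause was not tested. Across the 16 settings the count lower ranged from 10 to 15, 13 to 18 and 10 to 18 in the Treg-depleted tumor, control tumor and blood, and 8, 12 and 9 members were lower in all settings. Counts of settings include some that cannot change a ratio. The other UMI minimums (none, or 100 UMIs) only change which genes are counted, and the C1q gates leave the blood classes as they were. Members under 20 CPM, such as Ifi44, Ifit3b and Oas2, are limited by depth. No paired analysis was possible because each group has 1 library.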

Other observations

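Tumor cells outside the Ly6c2-high and C1q-high gates were not compared. Cells passing both the Ly6c2 and C1q minimum (495 in the Treg-depleted and 701 in the control tumor) held the 33 members at 4469 and 5265 CPM, and cells passing neither (1831 and 973) held them at 5252 and 4737 CPM. Isg15 made up 25.2% and 24.8% of member UMIs in the first and 27.3% and 21.4% in the second of these classes.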
